A study of Mus musculus with 2 samples.

Results

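Cytokine receptors are the cell-surface chains through which interleukins, colony-stimulating factors and interferon gamma act on blood cells. The genes described here were every non-control gene on the array whose name was Il, digits and r (such as Il10ra), together with Il6st, Csf1r, Csf2ra, Csf2rb, Csf2rb2, Csf3r, Epor, Lifr, Osmr, Lepr, Ghr, Crlf2, Ifngr1 and Ifngr2. One receptor gene and the genes named for receptor antagonists or accessory proteins were outside this rule. The rule gave 49 genes, read by 71 probes, of 34843 genes and 55680 probes in all. Expression was measured in LSK cells, the bone marrow fraction sorted as lineage-negative, Sca-1-positive and c-Kit-positive that holds stem and multipotent progenitor cells. Cells on both arrays were of the genotype Tet2KD/KD; Ezh2delta/delta on the C57BL/6 strain and came from a myelodysplastic syndrome (MDS) carried in secondary transplant recipients. They were taken 10 weeks after transplantation. One array held cells taken 7 weeks after decitabine (DAC), a cytosine analogue that traps DNA methyltransferases, and the other cells taken 7 weeks after phosphate-buffered saline (PBS). No arrays of other genotypes were part of the comparison, so both sides carried the Tet2 and Ezh2 alleles. How those alleles were made, the dose, the age of the mice and how many mice stood behind an array are not stated in the labels.

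There was 1 array per group. No difference could be tested against replicates, and no p-values are given. A signal is the log2 processed intensity of a probe minus the 75th percentile of its own array, so that 0 stands for that percentile, and a difference is DAC minus PBS. A probe is called detected here where the scanner software marked it well above background, and a gene measured where its brightest probe was detected on both arrays. The DAC array had 31601 probes (56.8%) detected, the PBS array 27007 (48.5%), and the 75th percentile of the unscaled intensity was 217 with DAC and 143 with PBS. The only error these files give is the SD of a log2 difference over probes printed 10 times. It was 0.30 at low signal, 0.14 at middle signal and 0.09 at high signal, over 62, 61 and 62 probes, and it covers neither mice, sorting nor amplification. In RNA from many cells, fewer cells of a type and less RNA per cell cannot be told apart.

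Most of these receptors have no enzyme of their own. A cytokine brings receptor chains together, the JAK kinases bound to the chains phosphorylate them, and STAT proteins dock there and move to the nucleus. Many cytokines share a chain: gp130, encoded by Il6st, serves IL-6, IL-11, IL-27 and LIF, the common beta chain serves IL-3, IL-5 and GM-CSF, and the common gamma chain serves IL-2, IL-4, IL-9, IL-15 and IL-21. The IL-1 and IL-17 receptors signal through adaptor proteins to NF-kappa B instead. In stem and progenitor cells such receptors help set survival, division and the choice between myeloid and lymphoid fates.

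Of the 49 genes, 3 were measured at least 2-fold higher on the DAC array: Il12rb2, the signalling chain of the IL-12 receptor, Il6ra, the chain that binds IL-6, and Il6st, the gp130 chain that IL-6 and its receptor recruit. The probes that carried these values, 60 bases each, are shown here because each difference rests on the RNA that matches them, and a second probe was detected only for Il12rb2. They lay on mm9 at chr6:67242256-67242315 on the minus strand and, for the second, at chr6:67242012-67242071. The Il6ra probe lay at chr3:89674054-89674113 on the minus strand and the Il6st probe at chr13:113296586-113296645 on the plus strand. The files do not say whether a probe lies in coding sequence or in a UTR.
Il12rb2: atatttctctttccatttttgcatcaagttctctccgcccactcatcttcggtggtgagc
Il12rb2, second probe: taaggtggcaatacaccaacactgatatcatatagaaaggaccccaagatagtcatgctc
Il6ra: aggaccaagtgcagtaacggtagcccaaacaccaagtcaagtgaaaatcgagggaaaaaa
Il6st: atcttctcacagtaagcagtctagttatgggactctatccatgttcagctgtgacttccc

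Il12rb2 had a scaled log2 signal of −1.37 on the DAC array, against −4.16 on the PBS array. The difference of 2.79 ± 0.30 (SD of repeated spots) is 6.94-fold. Its second probe read −3.68 on the DAC array, against −6.67 on the PBS array, where it was not detected, so it was at least 2.38-fold higher. Il6ra had −1.17 on the DAC array, against −3.94 on the PBS array, a difference of 2.77 ± 0.30 or 6.81-fold. Il6st had −0.35 on the DAC array, against −2.24 on the PBS array, a difference of 1.89 ± 0.14 or 3.71-fold. All 3 differences were larger than 2 SDs of repeated spots, and all 3 genes were dim to moderate, below the 75th percentile on both arrays. Among all 18222 measured genes, 0.384% had a difference at or above that of Il12rb2, 0.428% at or above that of Il6ra and 2.22% at or above that of Il6st.

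By the brightest probe of each gene, the share of receptors past 2-fold on the higher side lay near that of all genes. Of the 49 genes, 29 (59.2%) were measured on both arrays, where 52.3% of all genes were. The 3 genes at least 2-fold higher made up 10.3% of the 29, and 10.0% of all measured genes were as high. None of the 29 was 2-fold lower, where 6.85% of all measured genes were, and 26 lay within 2-fold, as did 83.1% of all genes. By any amount, 17 were higher and 12 lower with DAC. That is 58.6% higher, where 51.4% of all genes were. Their median difference was 0.04, beside 0.02 over all genes, with quartiles of −0.25 and 0.40. Past 2 SDs of the repeated spots lay 15 of the 29 (51.7%), where 59.4% of all measured genes did. Large differences were more frequent among dim genes. Of the 6106 genes with a mean signal between −3 and −1, where 11 receptors lay, including the 3, 15.6% were at least 2-fold higher and 9.32% as much lower. At 1.5-fold the receptors counted 6 higher and 3 lower, where 19.8% and 16.1% of all measured genes were, and at 4-fold 2 higher and 0 lower, where 1.87% and 1.29% were.

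**Figure D1:**
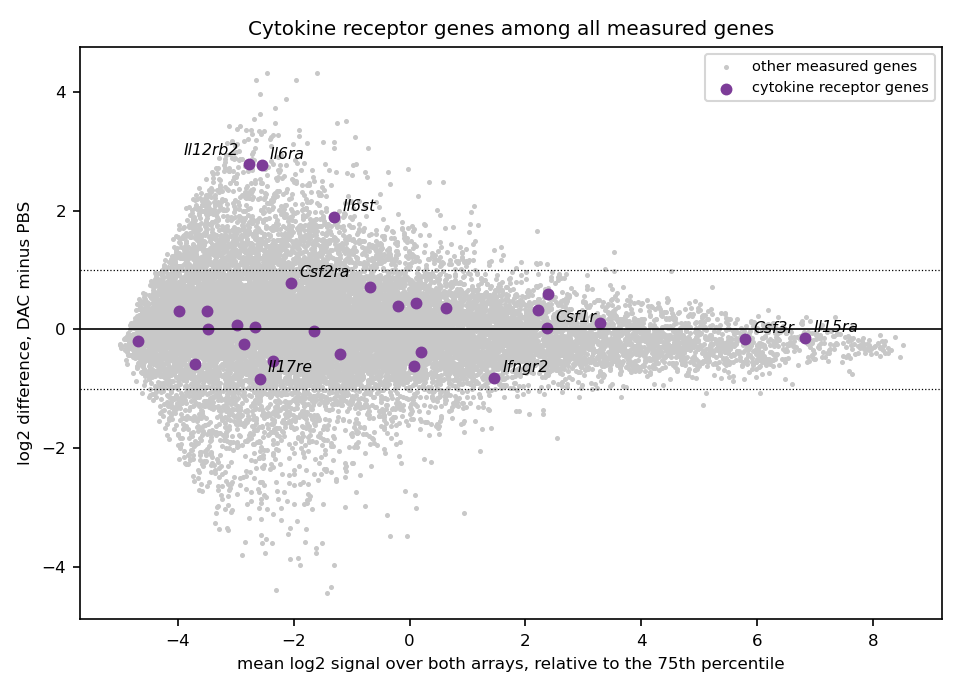
Each point is a gene measured on both arrays, with its mean scaled log2 signal across and its log2 difference, DAC minus PBS, up, and dotted lines mark 2-fold. The cytokine receptor genes (purple) lay mostly between the lines, and Il12rb2, Il6ra and Il6st stood above the upper line in the dim part of the range, where other genes (grey) spread widely too.

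A further 7 genes (14.3%) were detected on the DAC array alone, where 9.45% of all genes were, and 1 (2.04%) on the PBS array only, where 2.81% of all genes were. The remaining 11 (22.4%) were detected on neither array, as were 35.0% of all genes, and Il17rb had probes that split. For the genes detected on 1 array the lowest detected signal of the dim array, −5.18 for DAC and −4.93 for PBS, or the dim probe's own signal if higher, gives a lower bound of the fold. The bound reached 2-fold for 3 of the 49 (6.12%), where it did for 3.62% of all genes. Il10ra, the ligand-binding chain of the receptor for IL-10, had −0.66 on the DAC array, against −6.99 on the PBS array, and was at least 19.2-fold higher. Il2rb, the beta chain shared by the IL-2 and IL-15 receptors, had −2.12 on the DAC array, against −7.19 on the PBS array, and was at least 7.02-fold higher. Epor, the erythropoietin receptor that red cell precursors depend on, had −3.43 on the DAC array, against −5.68 on the PBS array, and was at least 2.83-fold higher. The Epor bound fell under 2-fold, to 1.43-fold with normexp and 1.40-fold without background subtraction. Without that subtraction the bound was 5.41-fold for Il10ra and 2.42-fold for Il2rb. Each of the 3 had 1 probe on the array, so none had a second reading. The other 4, Lifr, Il1rl1, Il9r and Il1r2, were too near the floor for a bound of 2-fold. In the other direction Il20ra, a chain of the receptor for IL-20 and related cytokines, had −5.83 on the DAC array, against −2.23 on the PBS array. It was at least 7.74-fold lower with DAC, or 2.99-fold without background subtraction, and 1.52% of all genes had a bound of 2-fold on that side.

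**Figure D2:**
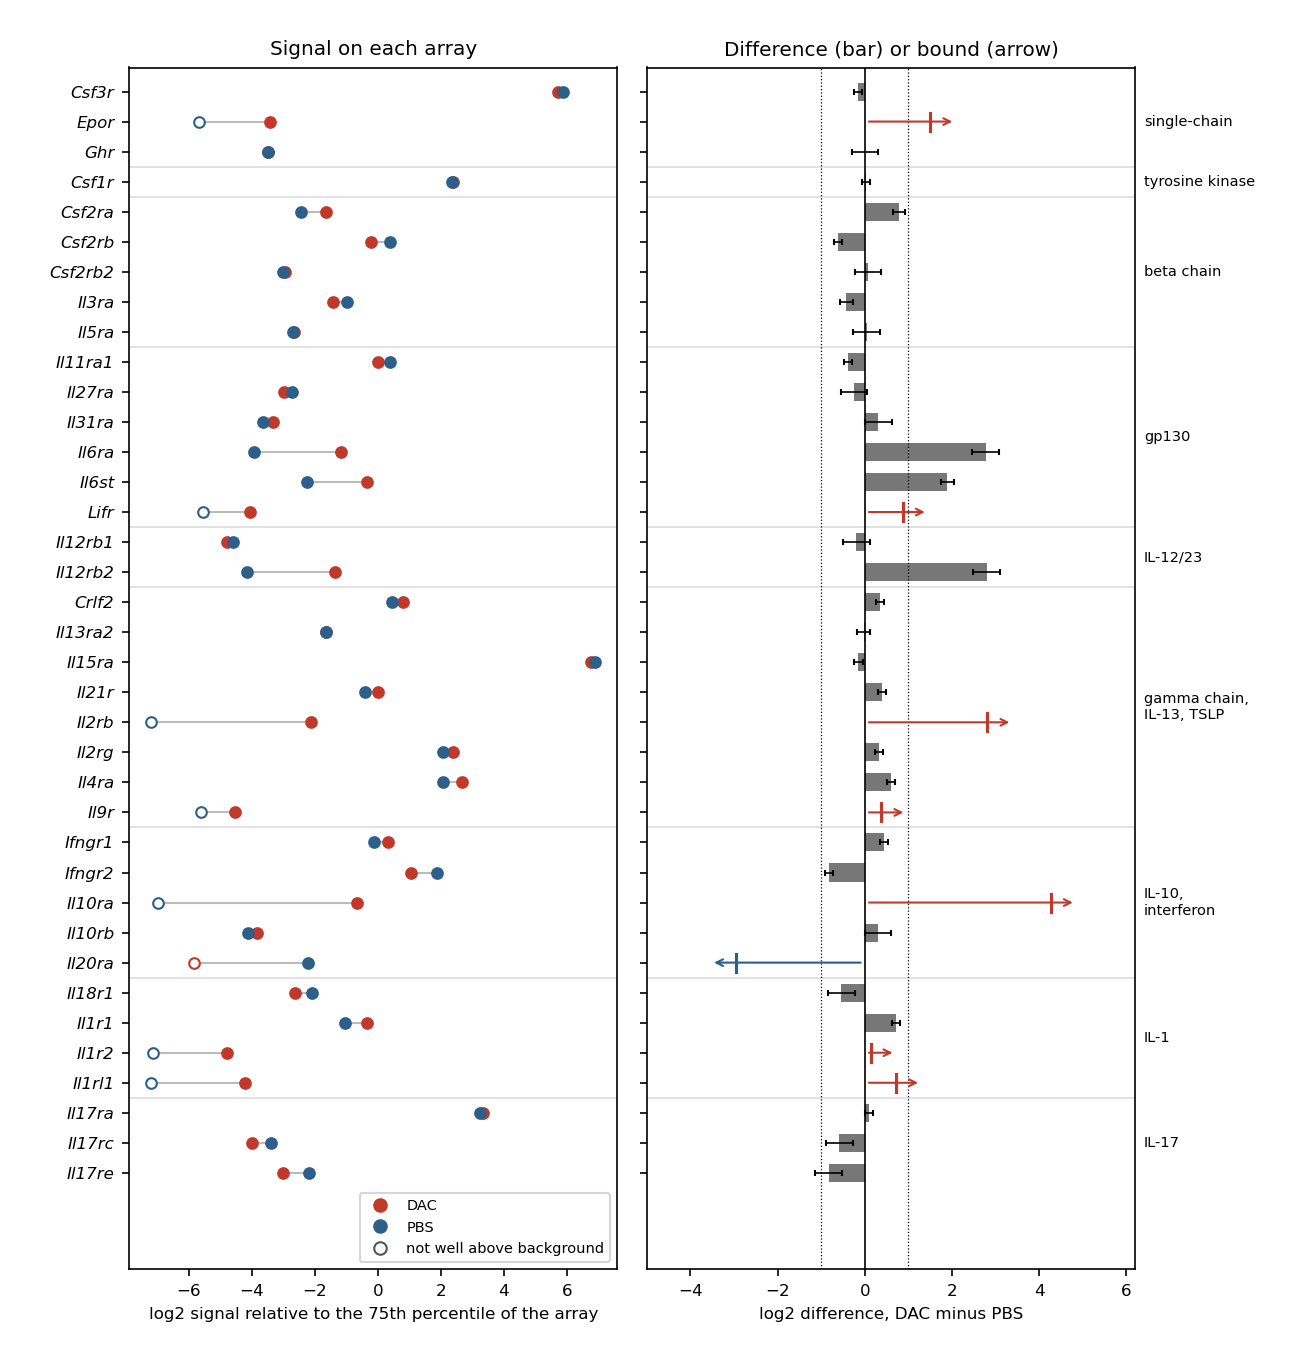
Left, the scaled log2 signal of each receptor gene on the DAC array (red) and the PBS array (blue), with open circles where the probe was not detected. Right, the log2 difference, DAC minus PBS, as a bar with the SD of repeated spots, or, for genes detected on 1 array only, an arrow with a tick at the lower bound of the log2 fold; dotted lines mark 2-fold. Il12rb2, Il6ra and Il6st are the bars past 2-fold. Il10ra, Il2rb, Epor and Il20ra are the genes whose tick lies past it. An arrowhead runs on beyond its tick and marks no value.

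Among the 7 gp130 family genes, the differences were uneven. Beside Il6ra and Il6st, Il31ra, which pairs with the oncostatin M receptor to bind IL-31, had −3.34 on the DAC array, against −3.65 on the PBS array. Il27ra, which pairs with gp130 for IL-27, had −2.98 on the DAC array, against −2.73 on the PBS array. Il11ra1, which binds IL-11, had 0.01 on the DAC array, against 0.39 on the PBS array, a difference of −0.38 ± 0.09. Lifr, which pairs with gp130 for LIF, had −4.06 on the DAC array and −5.56 (not detected) on the PBS array. Osmr was not detected on either array. So the shared chain and the IL-6 chain were higher on the DAC array, while the IL-11 and IL-27 chains had small negative differences. Of the ligands, Il6, Il11, Il31 and Lif were not detected on either array. Il27 had a log2 difference of 0.04, and Ebi3, the other subunit of IL-27, one of 0.90.

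In the IL-12 and IL-23 family, Il12rb2 was higher and its partner chain was not. Il12rb1, which both IL-12 and IL-23 need, was near the floor at −4.78 on the DAC array, against −4.59 on the PBS array. A second Il12rb1 probe read −4.01 on the DAC array, against −7.15 (not detected) on the PBS array, which bounds it at 1.89-fold higher. Il23r was not detected on either array, and its probe and that of Il12rb2 lie within 131 kb on chromosome 6. Of the ligand genes, Il12a had a difference of −0.16, and Il12b and Il23a were not detected.

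The 5 genes of the common beta chain family were all measured, and none reached 2-fold. Csf2ra, which binds GM-CSF, had −1.66 on the DAC array, against −2.44 on the PBS array, and its difference of 0.79 ± 0.14 was the highest among them. Il3ra, which binds IL-3, had −1.41 on the DAC array, against −0.99 on the PBS array. Il5ra, which binds IL-5 and marks the eosinophil lineage, had −2.65 on the DAC array, against −2.70 on the PBS array. Csf2rb encodes the common beta chain itself, and Csf2rb2 its mouse-specific copy that serves IL-3 alone. By their brightest probes Csf2rb had −0.23 on the DAC array, against 0.39 on the PBS array, and Csf2rb2 −2.94 on the DAC array, against −3.02 on the PBS array. The GM-CSF, IL-3 and IL-5 genes Csf2, Il3 and Il5 were not detected on either array.

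Both beta chain genes had another probe that differed from the brightest one. For Csf2rb it read −0.78 on the DAC array, against −2.57 on the PBS array, a difference of 1.79. For Csf2rb2 it read −3.08 on the DAC array, against −4.86 (not detected) on the PBS array, so at least 3.45-fold higher with DAC. These 2 probes are shown because they resemble each other. With the Csf2rb probe at chr15:78181168-78181227 on the plus strand and the Csf2rb2 probe at chr15:78113126-78113185 on the minus strand (mm9), they share 31 of 42 bases (73.8%) when set against each other without gaps, and capitals mark the shared bases.
Csf2rb: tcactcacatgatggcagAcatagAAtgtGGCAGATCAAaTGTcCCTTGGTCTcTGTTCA
Csf2rb2: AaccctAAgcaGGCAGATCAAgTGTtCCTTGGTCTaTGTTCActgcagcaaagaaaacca
Whether RNA of one gene was read by the probe of the other was not tested, so the direction of either gene is uncertain. Averaging the measured probes turned the difference of Csf2rb to 0.59.

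The receptors that act as a single chain ranged from bright to undetected. Csf3r, the G-CSF receptor that drives neutrophil production, had 5.71 on the DAC array, against 5.88 on the PBS array. Csf1r, the receptor tyrosine kinase of the macrophage lineage, had 2.39 on the DAC array, against 2.37 on the PBS array. Ghr, the growth hormone receptor, had −3.48 on both. These differences of −0.16, 0.02 and 0.00 were small, and their sign changed among the processing alternatives. Csf1r had 3 measured probes, however, and the other 2 gave 0.90 ± 0.30 and 2.27. The last of these read −0.66 on the DAC array, against −2.93 on the PBS array. Lepr, the leptin receptor, was not detected on either array, and neither were the ligand genes Csf1, Il34, Csf3, Epo and Lep. Gh, for growth hormone, was detected on the PBS array alone.

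In the common gamma chain, IL-13 and TSLP group, 6 of 10 genes were measured and all lay within 2-fold. Il2rg, the common gamma chain, had 2.39 on the DAC array, against 2.06 on the PBS array. Il4ra, shared by IL-4 and IL-13, had 2.68 on the DAC array, against 2.08 on the PBS array, a difference of 0.60 ± 0.09. Il21r, which binds IL-21, had 0.00 on the DAC array, against −0.40 on the PBS array. Crlf2, which binds TSLP, had 0.80 on the DAC array, against 0.45 on the PBS array. These 4 kept a positive difference under every alternative run, though a second Il4ra probe taken alone had a difference of −0.20. Il15ra, which presents IL-15, had 6.75 on the DAC array, against 6.90 on the PBS array. Il13ra2, a decoy receptor for IL-13, had −1.66 on the DAC array, against −1.64 on the PBS array. Il2rb was bounded as described, and Il9r, which binds IL-9, was detected on the DAC array alone, at −4.55 there and −5.62 on the PBS array. Il2ra and Il13ra1 were not detected on either array. Among the ligands, Il21 was at least 3.83-fold higher on the DAC array, Il9 and Il15 were detected on the DAC array alone with bounds under 2-fold, and Il2, Il4, Il13 and Tslp were not detected.

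In the IL-10 and interferon group, 3 of 9 genes were measured, and the 2 chains of the interferon gamma receptor went opposite ways. Ifngr1, the ligand-binding chain, had 0.33 on the DAC array, against −0.11 on the PBS array, a difference of 0.44 ± 0.09. Ifngr2, the chain that brings in JAK2, had 1.05 on the DAC array, against 1.87 on the PBS array, a difference of −0.82 ± 0.09. Il10rb, shared by IL-10, IL-22 and IL-28, had −3.82 on the DAC array, against −4.13 on the PBS array. With Il10ra the pattern of the IL-10 pair was likewise uneven: the chain particular to IL-10 had the bound given before, and the shared chain differed by 0.30 ± 0.30. The ligand gene Il10 was the reverse of Il10ra, at −5.54 on the DAC array (not detected) against −1.54 on the PBS array, so at least 12.4-fold lower with DAC. Il20rb, Il22ra1, Il22ra2 and Il28ra were not detected on either array, and neither was Ifng. Of the other ligands in this group, Il22 and Il24 had differences of −0.36 and 0.05, and Il19 and Il20 were not detected.

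Of the 5 IL-1 family receptors, 2 were measured. Il1r1, the signalling receptor for IL-1, had −0.33 on the DAC array, against −1.05 on the PBS array, a difference of 0.72 ± 0.09. Il18r1, which binds IL-18, had −2.62 on the DAC array, against −2.09 on the PBS array, but a second probe read −3.74 on the DAC array, against −5.85 (not detected) on the PBS array, so at least 2.27-fold higher. Il1r2, a decoy for IL-1, had −4.80 on the DAC array, and Il1rl1, the IL-33 receptor, −4.21, against −7.12 and −7.19 on the PBS array, where neither was detected. Il1rl2 was not detected. The ligand Il18 was at least 2.89-fold higher on the DAC array, Il1a was detected there only, with a bound under 2-fold, and Il1b and Il33 were not detected on either array.

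The 3 measured IL-17 receptors of 5 had a median difference of −0.58. Il17re, which binds IL-17C, had −3.002 on the DAC array, against −2.17 on the PBS array, and its difference of −0.83 ± 0.30 was the lowest among the 29. Il17rc, a partner of Il17ra, had −3.99 on the DAC array, against −3.41 on the PBS array, and a second probe of it was detected on the PBS array alone. Il17ra, the chain all the family share, was bright at 3.34 on the DAC array, against 3.24 on the PBS array. Il17rb, which binds IL-25, was split. One probe read −5.30 (not detected) on the DAC array, against −2.43 on the PBS array, and the other −4.52 on the DAC array, against −7.15 (not detected) on the PBS array. Such a split was found for 0.399% of all genes, and no direction can be given for Il17rb. Il17rd was not detected. Of the ligands, Il17d had a difference of −0.04, Il17c was detected on the DAC array alone, and Il17a, Il17b, Il17f and Il25 were not detected.

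Which probe stood for a gene therefore mattered. Besides the brightest probes, 11 probes of the receptors were detected on 1 or both arrays. With undetected signals taken as read, 7 of them (63.6%) were at least 2-fold higher with DAC and 0 at least 2-fold lower. Over all genes, 31.7% of such probes were as high and 9.57% as low. Of the 11, however, 5 were detected on the DAC array only, as were 2875 of 10630 over all genes. These 5 entered the set through their DAC signal alone and are among the 7, so the share of 63.6% is partly set by that selection. By their bounds, the second probes of Il12rb1 (1.89-fold) and Il17rb (1.33-fold) did not reach 2-fold. Of the 4 receptor genes with several measured probes, Csf1r, Csf2rb, Il15ra and Il4ra, 1 had the same sign on all of them (25%), where 52.8% of 4649 genes did, and the median span between their probes was 1.53, where it was 0.68 over all genes.

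**Figure D3:**
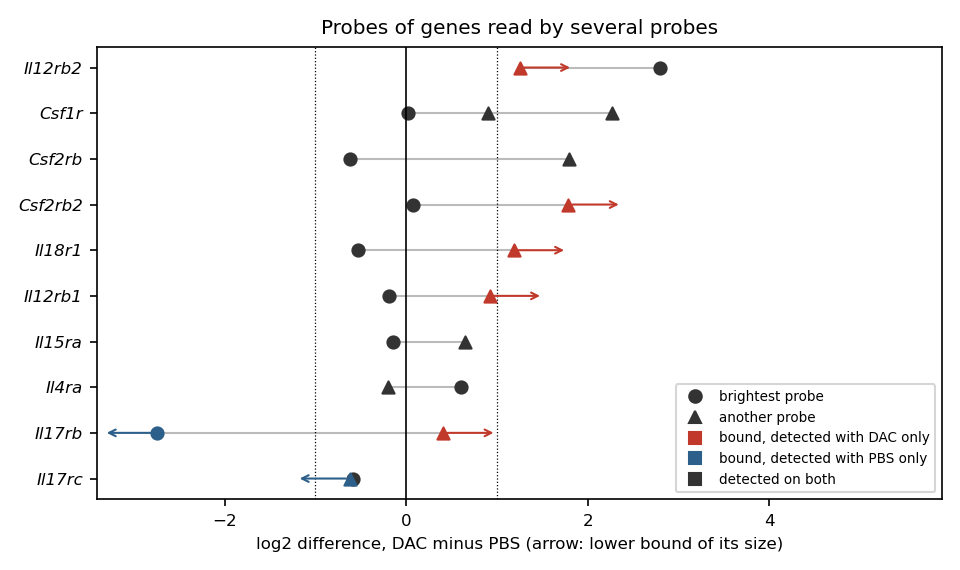
Each row is a receptor gene with several detected probes, and each symbol is a probe placed at its log2 difference, DAC minus PBS, or, with an arrow, at the lower bound of its size where 1 array did not detect it. Circles are the brightest probe and triangles another one, and colour gives the array on which the probe was detected. For Il12rb2 both probes lay past 2-fold on the same side, the second by its bound, while Csf1r, Csf2rb, Csf2rb2 and Il18r1 each had a brightest probe within 2-fold and another past it, by a bound for Csf2rb2 and Il18r1.

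The brightest probes of 3 receptor genes held letters that recur on the array. The Csf3r probe, at chr4:125721478-125721537 on the plus strand of mm9, ends in letters known from the mouse B1 repeat, and those of Il15ra at chr2:11655416-11655475 and Il4ra at chr7:132712550-132712609, both on the plus strand, hold a GT run. They are shown because the levels of these 3 genes rest on them, with the runs in capitals.
Csf3r: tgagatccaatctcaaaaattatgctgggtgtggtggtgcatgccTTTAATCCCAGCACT
Il15ra: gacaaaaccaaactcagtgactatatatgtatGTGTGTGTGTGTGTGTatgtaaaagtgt
Il4ra: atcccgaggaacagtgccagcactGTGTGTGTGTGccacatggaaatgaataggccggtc
All 128 probes that hold GTGTGTGTGTG were detected on both arrays, where 45.6% of all probes were, with a median signal of 6.94 on the DAC array and 7.06 with PBS. The 4 probes that hold TTTAATCCCAGCACT were all detected too, with medians of 6.10 on the DAC array and 6.21 with PBS. The other Il15ra probe, which holds neither run, read −2.26 on the DAC array, against −2.91 on the PBS array, a difference of 0.65. The other Il4ra probe read −3.38 on the DAC array, against −3.18 on the PBS array, a difference of −0.20. Whether the probes with runs also read RNA from other loci was not tested, and the levels of Csf3r, Il15ra and Il4ra are uncertain to that extent.

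Several receptor genes lie side by side in the genome, and neighbours lay apart in some groups and on the same side in others. Il31ra and Il6st have probes within 16.9 kb on chromosome 13, with differences of 0.31 and 1.89. Il10rb and Ifngr2, within 138 kb on chromosome 16, had 0.30 and −0.82. On chromosome 10, within 150 kb, Ifngr1 had 0.44, Il22ra2 was not detected, and Il20ra was at least 7.74-fold lower. The chromosome 15 group of Csf2rb2, Csf2rb and Il2rb spans 197 kb and held 0.07 and −0.62 beside a gene at least 7.02-fold higher. Il4ra and Il21r, within 64.2 kb on chromosome 7, had 0.60 and 0.40, and Il17re and Il17rc, within 12.6 kb on chromosome 6, had −0.83 and −0.58, so these pairs lay on the same side.

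Decitabine acts on DNA methylation, which in mammals sits on CpG sites, so the CpG content of the promoters was counted. RefSeq windows of 300 bases (250 before to 50 after the start, build GRCm38.p6) were held for 40 of the 49 genes, and for genes with several windows the one richest in CpG was taken. The receptors had a median of 12.5 CpG, and among the 23 measured ones 52.2% had 10 or more, where 79.6% of all measured genes in the table did. Il6st had 33, Il6ra 25 and Il12rb2 12. Those of the 26 genes within 2-fold overlapped this range, with 31 for Ifngr2, 25 for Il4ra, 23 for Csf2ra, 14 for Ifngr1, 9 for Csf3r and 3 for Il17re. Methylation itself was not measured. The windows of the 3 higher genes are shown with each CpG in capitals. Il6st is at chr13:112463820-112464119 on the plus strand, and Il6ra at chr3:89913147-89913446 and Il12rb2 at chr6:67376139-67376438 are on the minus strand.
Il6st: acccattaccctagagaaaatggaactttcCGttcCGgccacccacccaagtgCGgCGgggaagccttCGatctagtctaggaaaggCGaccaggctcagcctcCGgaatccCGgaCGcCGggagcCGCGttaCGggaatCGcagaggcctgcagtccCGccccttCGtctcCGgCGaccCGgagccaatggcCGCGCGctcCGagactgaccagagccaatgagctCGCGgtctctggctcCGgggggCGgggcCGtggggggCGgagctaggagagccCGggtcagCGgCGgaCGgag
Il6ra: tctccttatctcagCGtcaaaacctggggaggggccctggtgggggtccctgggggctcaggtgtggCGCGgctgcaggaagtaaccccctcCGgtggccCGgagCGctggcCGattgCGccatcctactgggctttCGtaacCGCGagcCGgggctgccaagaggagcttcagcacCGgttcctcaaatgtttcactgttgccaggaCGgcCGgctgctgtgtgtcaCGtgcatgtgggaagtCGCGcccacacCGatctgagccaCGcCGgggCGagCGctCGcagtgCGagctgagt
Il12rb2: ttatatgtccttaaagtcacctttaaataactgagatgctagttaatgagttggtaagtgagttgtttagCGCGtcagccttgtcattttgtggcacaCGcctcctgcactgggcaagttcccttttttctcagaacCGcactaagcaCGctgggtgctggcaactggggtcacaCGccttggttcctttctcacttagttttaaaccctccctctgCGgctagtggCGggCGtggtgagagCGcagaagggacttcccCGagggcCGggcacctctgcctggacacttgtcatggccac
The STAT motif TTCNNNGAA, which reads the same on both strands, was in the windows of 5 of the 40 genes (12.5%), Il12rb2, Csf2rb2, Il18r1, Il1r2 and Il31ra, and in 8.31% of all windows' genes. The PU.1 motif GAGGAAGT, searched on both strands, was in 1 of 40 (2.5%) and in 3.27% of all.

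Downstream of the receptors, 10 of 11 JAK and STAT genes were measured, and 2 were at least 2-fold higher with none lower. Jak2, the kinase of the erythropoietin, GM-CSF and interferon gamma receptors, had −0.80 on the DAC array, against −2.13 on the PBS array, a difference of 1.33. Stat2, of the type I interferon pathway, had −1.77 on the DAC array, against −3.22 on the PBS array, a difference of 1.45. The other 8 measured genes lay within 2-fold. Jak1 had a difference of 0.36, Jak3 one of −0.46 and Tyk2, which serves IL-12, one of −0.54. Stat3, which gp130 activates, had 0.21, Stat4, which IL-12 activates, −0.65, Stat5a 0.46, Stat5b −0.02 and Stat6, which IL-4 activates, −0.70. The median over the 10 was 0.09.

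Of 19 negative regulators of this pathway, 15 were measured, 5 were at least 2-fold higher and none was 2-fold lower, where 10.0% and 6.85% of all measured genes were, and their median was 0.40, beside 0.02 over all genes. Cish, a STAT5-induced inhibitor of cytokine receptors, had −1.41 on the DAC array, against −3.94 on the PBS array, a difference of 2.52. Socs2, another such feedback gene, had −2.55 on the DAC array, against −3.85 on the PBS array, a difference of 1.30. The remaining 3 were Pias1, with 1.59, the ubiquitin ligase gene Cbl, with 1.43, and Socs7, with 1.22. Socs3, the feedback inhibitor that acts on gp130, had −0.46 on the DAC array, against −1.04 on the PBS array. Of 16 genes that STATs induce, 15 were measured. The kinase gene Pim1 was higher (1.16), and Id1, an inhibitor of differentiation (−2.11), and Bcl2l1, which encodes the survival protein BCL-XL (−1.20), were lower.

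Of 46 cytokine ligand genes, 7 were measured and none reached 2-fold, where 52.3% of all genes were measured. Another 8 were detected on the DAC array alone, 2 on the PBS array only and 29 on neither. Over all genes those shares were 9.45%, 2.81% and 35.0%. So most cytokine genes were not detectable at this signal. Among 13 other growth factor and cytokine receptors, 11 were measured and none was 2-fold lower. Prlr, the prolactin receptor, was not detected with PBS and was at least 5.41-fold higher. All 9 IL-1 and IL-17 receptor adaptors were measured. Tollip, which restrains IL-1 receptor signalling, had a difference of 1.69 and the adaptor gene Myd88 one of −0.99.

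Marker genes of the sorted cells and of other cells were read on the same arrays. Of 12 LSK genes, 11 were detected on each array, with summed linear signals of 35.2 on the DAC array and 33.8 with PBS, in units of the 75th percentile. Kit and Ly6a, which encode the c-Kit and Sca-1 used in the sort, had differences of 0.12 and 0.07. Slamf1 was not detected. Of 14 T and NK cell genes, whose cells are known to use Il12rb2, Il2rb and Il10ra, 9 were detected on the DAC array and 10 with PBS, with sums of 10.1 with DAC and 9.79 with PBS. Nkg7 alone made up 7.34 of the sum with DAC and 7.55 with PBS. Cd3e, Cd4 and Lck were detected on both arrays, Cd247 (1.83) and Lat (1.26) were at least 2-fold higher with DAC, Gzmb (−1.47) and Tbx21 (−1.53) at least 2-fold lower, Cd3d was at least 4.51-fold lower, and Cd3g, Cd8a and Cd8b1 were not detected on either array. Of 12 monocyte and macrophage genes, which include Csf1r, 10 were detected on the DAC array and 5 with PBS, with sums of 7.26 with DAC and 6.98 with PBS, or 2.08 with DAC and 1.85 with PBS when Csf1r is left out. Emr1 was at least 4.97-fold and Lgals3 at least 3.84-fold higher with DAC, Cx3cr1 (−1.10) was lower, and Fcgr1 and Mrc1 were not detected on either array. The mast cell, basophil and eosinophil list summed to 2.32 on the DAC array and 5.399 with PBS, with 8 of 11 detected with DAC and 9 with PBS, while Il5ra differed by 0.04. Prg2 (−2.73) and Cpa3 (−1.04) made up most of the sum with PBS. With Prss34 and Cma1 they were the 4 at least 2-fold lower with DAC. Tpsb2 (1.36), Hdc (1.35) and Epx (1.20) were the 3 at least 2-fold higher, and Fcer1a was at least 2.85-fold lower. The erythroid list, beside Epor, summed to 4.26 on the DAC array and 5.30 with PBS. Its genes went both ways: Gata1 (−2.02) was at least 2-fold lower and Car1 (1.82) at least 2-fold higher with DAC. By any amount, 3 of its 8 measured genes were higher and 5 lower. The neutrophil list summed to 28.3 with DAC and 27.1 with PBS. Mpo, at a scaled log2 signal of 4.35 with DAC and 4.18 with PBS, made up most of both sums, and their order rests on it. Elane (1.56) and Ltf (1.47) were at least 2-fold higher with DAC, and Lcn2 (−1.25) and Ngp (−1.59) at least 2-fold lower. Retnlg was at least 2.06-fold higher. The B cell list summed to 19.6 with DAC and 17.2 with PBS, with Pax5 (1.28) at least 2-fold higher and Ebf1 (−1.08) at least 2-fold lower. The dendritic cell list summed to 8.98 with DAC and 10.5 with PBS. Against that order, Ccr9 was at least 9.54-fold and Cd300c at least 3.93-fold higher with DAC, and no measured gene of the list reached 2-fold. The endothelial and stromal list summed to 2.05 with DAC and 1.56 with PBS, and its genes went both ways. Pecam1 (2.95) and Emcn (1.56) were higher with DAC, and Col4a2 at least 4.47-fold higher. Cxcl12 (−1.42) and Fn1 (−1.03) were lower, Fabp4 at least 5.70-fold and Col3a1 at least 2.46-fold lower. The part of other cell types in the receptor values was not tested.

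The 3 higher genes held across the scaling and background alternatives. Il12rb2 and Il6ra kept a difference past 2-fold under all 11 alternatives in which they were measured, the lowest being 1.57 and 1.60 without background subtraction, and Il6st under all 12. Those that change only the filter or the choice of probe could not move these values. Each of the 3 genes had 1 measured probe, which already passed the filter. Of the 29 measured genes, 10 were higher under every alternative run, 9 were lower under every one, and 10 changed sign: Csf1r, Csf2rb, Csf2rb2, Csf3r, Ghr, Il10rb, Il15ra, Il17ra, Il31ra and Il5ra. For those 10 no direction is given. Probes detected on 1 array only entered none of the alternatives. The second probes of Il12rb1 and Il18r1, at least 1.89-fold and 2.27-fold higher with DAC, therefore could not change the sign of these genes. The second Il4ra probe, at −0.20, entered only as part of an average.

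**Figure D4:**
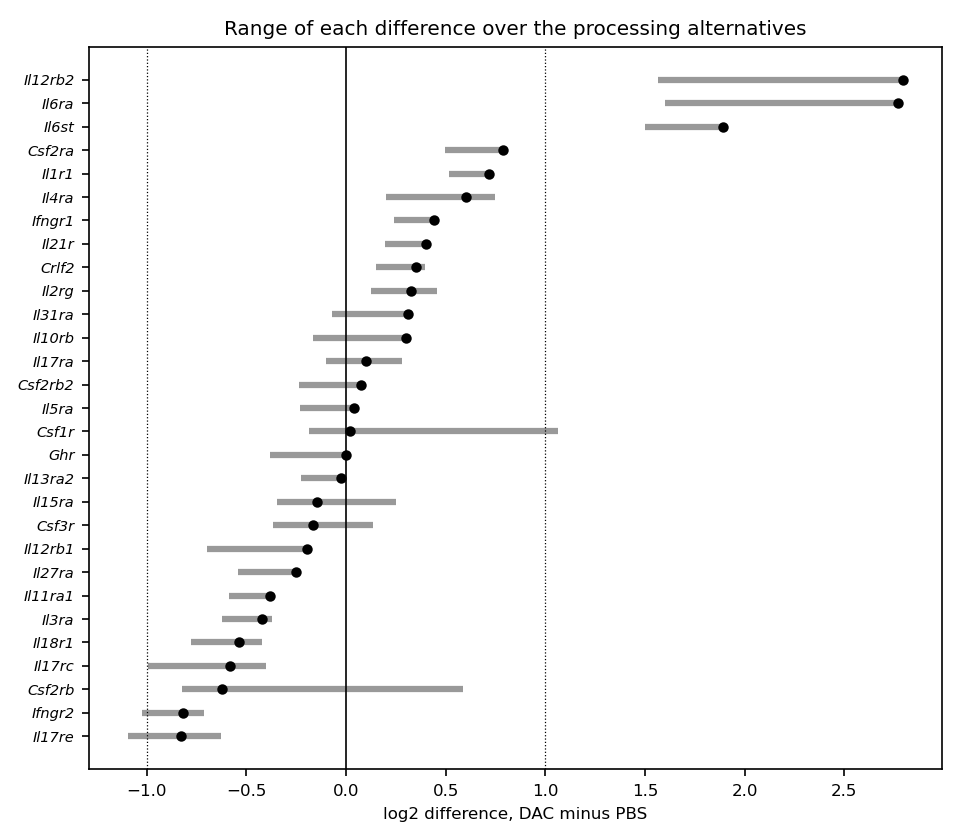
For each receptor gene measured on both arrays, the black point is its log2 difference, DAC minus PBS, and the grey bar runs from the lowest to the highest value over the processing alternatives; dotted lines mark 2-fold. The bars of Il12rb2, Il6ra and Il6st stay right of the upper line, and those of Csf1r and Csf2rb are the widest across 0.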

How the data were processed

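The deposited scanner output gives an intensity per spot. Agilent Feature Extraction 10.7.3.1 made it, per the file headers, with the protocol GE1_107_Sep09 and mm9 coordinates, for 2 arrays of 1 slide. In the processed intensity that the authors deposited, local background is already subtracted and arrays are not set to a common level. The deposited series matrix holds log2 values with a median of 0 in each column. Its difference between columns followed that of the log2 processed intensity with a slope of 1 and an offset of −0.60, so scale and direction are settled and the baseline of each probe is unknown; it served as an alternative only. Per the labels' protocols, total RNA was amplified and labelled with Cy3.

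After outlier spots were left out, log2 values were averaged per probe. Each array's 75th percentile, taken over the 25404 probes (45.6%) detected on both, was then subtracted. A gene took the name in the file and its probe with the highest mean log2 signal. Genes were counted at 2-fold, since 1 array per group allows no test. The number of arrays limits the precision. Differences were computed with limma 3.58.1 in R 4.3.3 for the normalization alternatives and pandas 2.3.3 for the rest, and the code was checked on simulated arrays. Every member measured on both arrays or bounded at 2-fold is named, with listed pathway genes past 2-fold, JAK and STAT genes and ligands of named receptors. Values of some listed pathway genes are not reported here. The members and lists were chosen with earlier results of these data known. Gene Il28ra was matched to its promoter as Ifnlr1. Alternatives covered scaling, background, the filter on dim probes, the choice of probe and the fold.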

Additional observations from a re-analysis of the deposited data

How the results depend on the processing

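The count of receptors at least 2-fold lower with DAC depended on the scaling, and so did the median. It was 2 (Ifngr2 and Il17re) with the 75th percentile over all probes and with the series matrix, and 1 (Il17re) with quantile normalization and with cyclic loess. It was 2 with the positive and significant filter, 2 with no filter and 3 at 1.5-fold. The count higher was 7 with the positive and significant filter, which adds Epor, Il10ra, Il9r and Lifr (7 of 40, where 14.5% of all genes were), 11 with no filter (of 49, where 15.4% were), 6 at 1.5-fold, and 1, Il6st alone, in the brighter part of the genes, from the median signal up. The median of the receptors was −0.16 with all probes and with the series matrix, −0.12 with median centring and 0.20 with the mean of all measured probes. The median of all genes itself moved by −0.20, −0.20 and −0.16 under those first 3 scalings and by −0.11 with quantile normalization. Of all genes past 2-fold, 59.4% were on the higher side, against 41.9% with all probes, 42.0% with the series matrix, 42.2% with quantile normalization, 45.7% with loess, 45.9% with median centring, 49.0% with normexp and 49.4% without background subtraction. The filters and the averaging change which genes or probes enter; for the other settings the cause was not tested. Lower bounds ranged over 5.41 to 19.2-fold for Il10ra, 2.42 to 7.02-fold for Il2rb, 1.40 to 2.83-fold for Epor and 2.99 to 10.1-fold for Il20ra, each lowest without background subtraction. Of the values of single genes under the alternatives, 253 moved by less than the spot error and 105 by more. The 253 include many values that could not move. A change of filter, or taking the brightest measured probe, left the value of every measured receptor as it was. Averaging could change only the genes with several measured probes. The 253 is therefore no measure of how stable the values were. No paired analysis was possible because each group has 1 array. Signal over background limits the 11 receptors above it on neither array.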
